A study of Homo sapiens with 12 samples.

Results

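The genes described here are 36 genes of the autophagy pathway and of nutrient sensing through the MiT/TFE transcription factors, taken from a list of gene symbols and found by Ensembl ID in the expression table. The table holds 60649 gene IDs, of which 17576 had enough reads to be tested. All 36 genes were tested. By role they are 3 MiT/TFE factors (TFEB, TFE3, MITF), 5 genes of the ULK initiation complex, 3 of the class III PI3-kinase complexes, ATG9A with the 2 WIPI genes, 8 genes that conjugate ATG8 proteins to lipid, 5 ATG8 family genes, 4 cargo receptors, and 5 genes that relay nutrient state to the MiT/TFE factors (FLCN, FNIP1, FNIP2, RRAGC, RRAGD).

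RNA sequencing of total RNA compared 4 groups of MDA-MB-231, a human line derived from triple-negative breast cancer. There were 3 libraries per group and 12 in all. Controls carried a sham short hairpin RNA, the SIRT1 KD group a hairpin against SIRT1, the IGF2BP2 KD group a hairpin against IGF2BP2, and the double KD group both. All cells, the controls included, had been infected with lentivirus made in HEK-293T cells in the presence of Polybrene (8 µg/mL), were kept in puromycin (2.0 µg/mL) and were grown in RPMI-1640 with 10% serum, so the cells were not starved by design. SIRT1 is an NAD-dependent protein deacetylase. The protein IGF2BP2 binds RNA and affects the stability and translation of its target transcripts. Neither the hairpin sequences nor whether the 3 runs of a group were separate infections is given in the sources used here, and p-values reflect only the spread among those runs.

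Autophagy encloses cytoplasm in a membrane, the autophagosome, which then fuses with the lysosome. It starts with the ULK1 kinase complex, continues with a class III PI3-kinase complex that makes the lipid signal read by WIPI proteins, and ends with ATG8 proteins (the LC3 and GABARAP families) being joined to the membrane lipid, where cargo receptors such as p62 dock. TFEB, TFE3 and MITF switch on many of these genes and many lysosomal genes. When amino acids are plentiful the kinase mTORC1 keeps TFEB and TFE3 in the cytoplasm, which needs the GTPases RagC and RagD and their activator folliculin (FLCN) with its partner FNIP1 or FNIP2. Several genes of this relay, among them FLCN, FNIP2 and RRAGD, are themselves MiT/TFE targets, which is known as a feedback loop. Transcript levels say nothing of where TFEB is in the cell or of autophagic flux, and neither was measured.

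MiT/TFE factors bind the letters CACGTG, extended by a T before or an A after in many lysosomal genes (TCACGTG or CACGTGA). Because CACGTG is its own reverse complement, a search of 1 strand finds it on both, and the extended forms are reverse complements of each other. RefSeq start-site windows (build GRCh38.p14, 250 bases before to 50 after the start) were matched for 32 of the 36 genes. CACGTG was present in 4 of those 32 windows (12.5%), against 9.83% of 11734 windows of tested genes and 7.43% of all 27305 windows. All 4 also hold an extended form, which 5.71% of the windows of tested genes do. The matches are shown, with CACGTG in capitals, because these are the windows among the 32 searched that carry the letters the MiT/TFE factors read. RB1CC1, UVRAG, MAP1LC3A and RRAGD had no matched window. A match is not evidence that a factor binds there.
ATG14, chr14:55411834-55411863, minus strand, 21 bases before the start: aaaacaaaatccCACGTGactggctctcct
RRAGC, chr1:38859867-38859896, minus strand, 112 bases before the start: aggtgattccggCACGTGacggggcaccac
FNIP1, chr5:131797175-131797204, minus strand, 175 bases before the start: ccccgcccctgcCACGTGacgggacccgcc
FNIP1, chr5:131797094-131797123, minus strand, 94 bases before the start: tccgcgcgccgcCACGTGatgcggcccccc
ATG3, chr3:112561963-112561992, minus strand, 18 bases before the start: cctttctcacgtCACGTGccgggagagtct
ATG3, chr3:112561940-112561969, minus strand, 5 bases after the start: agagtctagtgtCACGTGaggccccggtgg

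In these cells 11 libraries held 19522606 to 22509142 reads. The library of double KD replicate 2 held 15243152. It also had a lower mitochondrial share of reads, 1.18% against 1.99% to 2.57% in the other 11, and differed more from its partners (SD of log2 differences 0.347 against 0.120 to 0.235), so counts are given with and without it, and calls that change without it are named. The spread is estimated over all 4 groups, so leaving this library out also changes the adjusted p of comparisons that do not contain it, at the same log2 fold change. SIRT1 read 799, 841 and 863 normalised counts in the controls, 547, 496 and 539 in SIRT1 KD (63.2% of the control mean) and 396, 380 and 436 in double KD (48.4%), so its transcript was reduced only in part. IGF2BP2 read 3045, 3055 and 3127 in the controls, 709, 841 and 736 in IGF2BP2 KD (24.8%) and 992, 715 and 884 in double KD (28.1%). The markers of a mesenchymal triple-negative line VIM, CD44, AXL, ZEB1, EGFR and CAV1 were all tested. Their summed level was 107697 to 112514 in the controls, which does not show the level of each. The mean of ESR1, PGR and FOXA1 was at most 6.02 in every group. Of 4 tested luminal markers 3 (EPCAM, GATA3, CDH1) fell in SIRT1 KD and in double KD, although the summed level of the 7 luminal genes, mostly KRT8, was 12407 to 12762 in the controls, 13414 to 14440 in SIRT1 KD, 11239 to 11784 in IGF2BP2 KD cells and 10229 to 14121 with both knockdowns. The summed level of 5 fibroblast and immune markers, mostly PDGFRB, was 431 to 486 in the controls, 155 to 208 in SIRT1 KD, 382 to 428 in IGF2BP2 KD cells and 130 to 150 with both knockdowns, while DCN and PTPRC had means of at most 3.5. LUM and CD68 complete that list of 5, of which 2 were tested. The one tested besides PDGFRB did not pass (log2 fold change -0.76 in SIRT1 KD and -0.47 in double KD). In these bulk samples fewer cells of a kind and less RNA per cell cannot be told apart, and the part of these markers in the changes below was not tested.

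A normalised count is a read count divided by a size factor for the library. Levels of different genes are compared only per kilobase (kb) of exon. On that scale SQSTM1, which encodes the receptor p62, was highest in the controls at 1269 ± 37.5 normalised counts per kb (SD, n = 3). OPTN (819 ± 36.2), TFE3 (795 ± 33.0) and NBR1 (704 ± 18) came next, and the OPTN and TFE3 values did not differ beyond their spread. Among the MiT/TFE factors, TFE3 was far above TFEB (61.3 ± 3.64) and MITF (34.3 ± 2.54), the highest level in the family. Among the ATG8 genes MAP1LC3B led (393 ± 16.6 per kb), followed by GABARAPL2 (247 ± 14.9), GABARAPL1 (133 ± 7.49) and MAP1LC3A (103 ± 12.2). GABARAP was lowest of all 36, at 8.11 ± 0.503 per kb or 18.4 ± 1.14 normalised counts. This value is uncertain, since 30.5% of its exon bases overlap another gene annotated on the same strand, which is listed at 0 in every library, and 25.2% overlap a gene on the other strand with a mean of 33.4 normalised counts. The part of these overlaps in the low value was not tested. Reads from a gene and an opposite-strand neighbour cannot be told apart, as no strand setting is given in the sources used here. Exons of SQSTM1 (20.7%, with MRNIP, mean 354 normalised counts), ATG101 (19.2%, a gene listed at 0) and BECN1 (12.4%, with CNTD1, mean 24.4, and 4.68%, with PSME3, mean 3645) overlap opposite-strand genes, and those of ATG9A (38.8%, mean 6.52), RRAGC (22.9%, listed at 0) and FLCN (11.9%, mean 3.17) overlap same-strand genes.

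**Figure D1:**
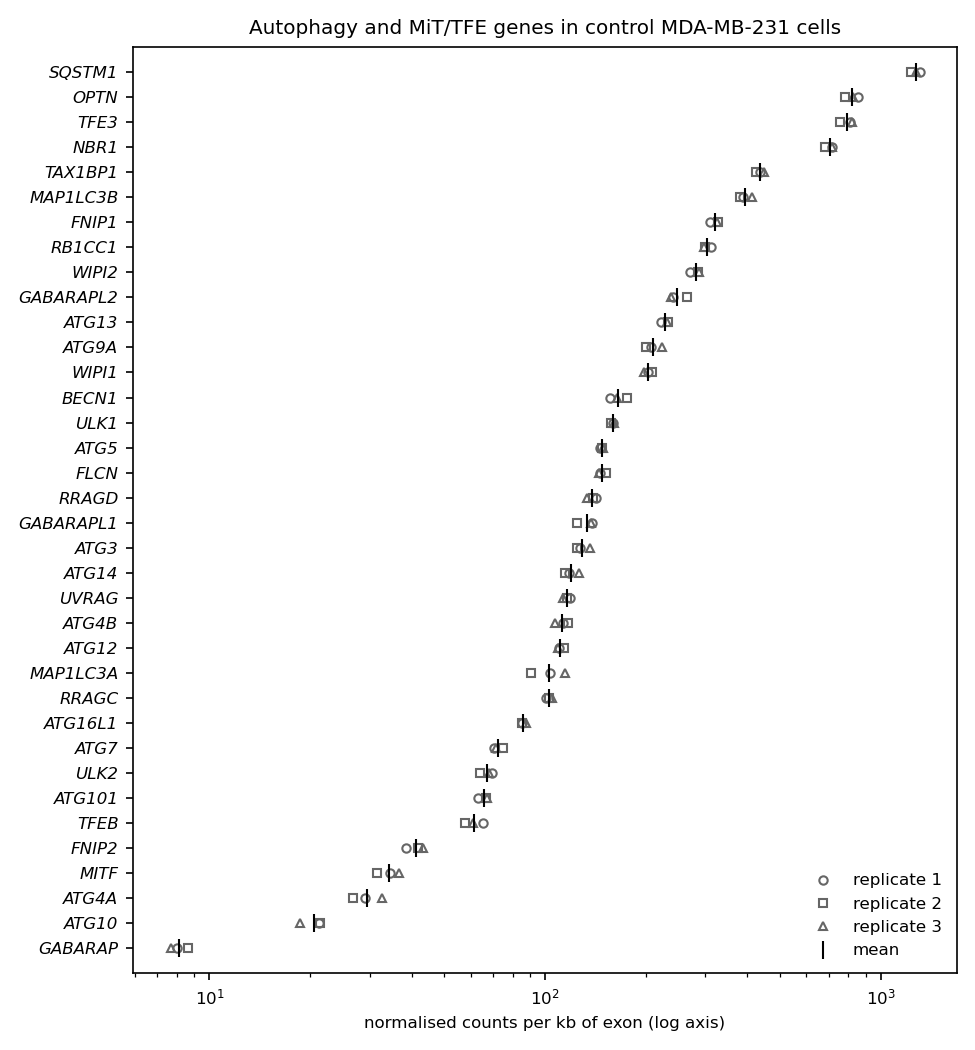
Level of each of the 36 genes in the 3 control libraries, as normalised counts per kb of exon on a log axis; open symbols are libraries and the bar is their mean. SQSTM1 is highest at 1269 and GABARAP lowest at 8.11 per kb.

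The comparison of SIRT1 KD with control asks what lowering SIRT1 does to these transcripts. The 2 largest changes were in the nutrient relay upstream of TFEB. FNIP2 rose 1.91-fold and RRAGD 1.80-fold, and FLCN, the third partner, rose 1.25-fold. SQSTM1 rose 1.40-fold, while TFEB itself fell 1.34-fold. At an adjusted p under 0.05, 10 of the 36 genes rose and 3 fell, which is 13 of 36, while 28.6% of all tested genes were called (12.9% rose and 15.7% fell). The median log2 fold change of the 36 was 0.09, against -0.00 over all tested genes. Without double KD replicate 2, 11 rose and 6 fell, beside 39.8% of all tested genes (18.9% rose and 20.9% fell), with TAX1BP1 (adjusted p = 0.0144) added to the rises and MITF, ATG3 and FNIP1 to the falls. Only 5 rose without control 1, and 6 without SIRT1 KD 1 or 3. Rises among all tested genes numbered 1700, 1709 and 1738 in these fits, in place of 2272.

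Among the MiT/TFE factors, TFEB (chr6:41683978-41736259, minus strand, GRCh38) read 368, 327 and 343 normalised counts in the controls and 253, 237 and 282 in SIRT1 KD. All 3 SIRT1 KD libraries were below all 3 controls (log2 fold change -0.43, SE 0.111, adjusted p = 0.00679). MITF, the family member best known from melanocytes, read 248, 227 and 263 in the controls and 187, 189 and 199 in SIRT1 KD. Its groups did not overlap either, but it did not pass (-0.36, adjusted p = 0.0959, and 0.00171 without double KD replicate 2). TFE3 went from 3463, 3243 and 3507 to 3281, 3132 and 3038 and overlapped (-0.11, adjusted p = 0.255). The 3' untranslated regions of 4 of the 36 genes hold the letters CTCAGAT and those of 3 more hold TCAGATA on the transcript strand, 7 of 36 (19.4%), against 20.0% of 13119 searched genes. This pair of 7-mers was picked in an earlier look at these data, the same SIRT1 comparison included. The counts and medians given for it, in either comparison below, therefore support nothing. Of the 2623 searched genes with such a site, 988 fell and 274 rose in SIRT1 KD. Of the 10496 without one, 1500 fell and 1808 rose. From IGF2BP2 KD to double KD, 890 fell and 363 rose with a site, and 1445 fell and 2345 rose without. The part of these sites in the falls was not tested. TFEB is shown because, of the 36 genes, it alone of the 3 that fell in SIRT1 KD holds one. RRAGC is shown as a gene that holds the same letters and did not pass. MITF, ATG5, ATG4A, ATG12 and UVRAG hold one too and did not pass (-0.36, -0.15, -0.13, -0.11 and -0.08). Of the 7 only RRAGC was not below 0. In SIRT1 KD the median was -0.13 for the 7 and 0.12 for the 29 members without a site. From IGF2BP2 KD to double KD these medians were 0.12 and 0.04. The 7-mer is in capitals.
TFEB, chr6:41684157-41684183, minus strand: ctttttgggaCTCAGATggcaggaggt
RRAGC, chr1:38839084-38839110, minus strand: aacactgcctCTCAGATttcagttttg
The values of RRAGC in SIRT1 KD overlapped the controls (518, 531 and 543 normalised counts in the controls, 562, 516 and 518 in SIRT1 KD, log2 fold change 0.00, adjusted p = 0.985).

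In the ULK initiation complex, whose kinase starts autophagosome formation, the 2 scaffold genes fell and the kinases did not pass. ATG13 (chr11:46617527-46674818, plus strand), the adaptor that tethers the complex, went from 1548, 1621 and 1616 to 1376, 1293 and 1224 normalised counts (log2 fold change -0.30, SE 0.067, adjusted p = 0.00225). RB1CC1 (chr8:52622456-52745843, minus strand), which encodes the scaffold FIP200, went from 2377, 2275 and 2263 to 1863, 1947 and 1904 (-0.28, SE 0.091, adjusted p = 0.0304). Every SIRT1 KD library lay below every control for both genes. The kinase genes ULK1 (0.12) and ULK2 (0.08) and the subunit gene ATG101 (0.12) had adjusted p-values of 0.343, 0.532 and 0.654.

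In the class III PI3-kinase group, BECN1 encodes the core subunit, ATG14 directs the complex to autophagosomes and UVRAG directs it to endosomes. ATG14 (chr14:55366392-55411858, minus strand) went from 594, 579 and 637 normalised counts to 757, 754 and 765 (log2 fold change 0.33, SE 0.070, adjusted p = 0.00138). BECN1 went from 1002, 1121 and 1048 to 1231, 1216 and 1231 (0.22, adjusted p = 0.0295). UVRAG did not pass (-0.08, adjusted p = 0.501). ATG9A, the lipid scramblase of the membrane source, rose by 0.26 (adjusted p = 0.0141), as did WIPI2, which recruits ATG16L1, by 0.24 (adjusted p = 0.0140), and WIPI1 had a log2 fold change of 0.09 (adjusted p = 0.524).

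Of the 8 conjugation genes only ATG16L1 rose in SIRT1 KD, from 514, 516 and 531 to 618, 605 and 578 normalised counts (0.20, adjusted p = 0.0443), and the other 7 ranged from -0.22 (ATG3, adjusted p = 0.0107 without double KD replicate 2) to 0.11 (ATG7). ATG16L1 places the ATG12-ATG5 conjugate on the membrane. Of the 5 ATG8 genes MAP1LC3A rose, from 182, 160 and 203 to 227, 242 and 280 (0.46, SE 0.151, adjusted p = 0.0283), and the other 4 lay between 0.06 and 0.14. Of the 4 cargo receptors SQSTM1 (chr5:179806398-179838078, plus strand) rose, from 9976, 9406 and 9747 to 14503, 12755 and 13660 (0.49, SE 0.129, adjusted p = 0.00981). OPTN, NBR1 and TAX1BP1, the other receptors, lay between 0.01 and 0.16 and did not pass.

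In the nutrient relay, FNIP2 (chr4:158769138-158908049, plus strand) read 418, 453 and 472 normalised counts in the controls and 845, 849 and 870 in SIRT1 KD (log2 fold change 0.93, SE 0.077, adjusted p = 5.68e-08). RRAGD (chr6:89364636-89412270, minus strand) read 720, 703 and 675 and then 1291, 1264 and 1232 (0.85, SE 0.071, adjusted p = 6.82e-08). FLCN (chr17:17212212-17237188, minus strand) read 1424, 1489 and 1415 and then 1855, 1725 and 1842 (0.32, SE 0.075, adjusted p = 0.00285). No SIRT1 KD library overlapped a control for these 3 genes. The groups were also separate for members that did not pass, such as ULK1 and OPTN. The share of all tested genes with separate groups was not counted, so separation is description only. The paralog FNIP1 had a log2 fold change of -0.15 and did not pass (adjusted p = 0.285, and 0.0219 without double KD replicate 2).

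Of the 13 calls, 7 (FNIP2, RRAGD, SQSTM1, ATG14, FLCN, TFEB, ATG13) stayed under the threshold when any 1 of the 12 libraries was left out. RB1CC1 was lost without any 1 control or SIRT1 KD library (adjusted p up to 0.105), BECN1 without control 1 or 3 or any SIRT1 KD library (up to 0.138), ATG9A without control 1 or 2 or SIRT1 KD 1 or 3 (up to 0.0743), WIPI2 without control 1 or SIRT1 KD 1 (up to 0.0706), MAP1LC3A without control 1 or 2 or SIRT1 KD 2 or 3 (up to 0.130), and ATG16L1 without any control or SIRT1 KD library or IGF2BP2 KD 1 or 3 (up to 0.142). With no filter on low genes SQSTM1, BECN1 and ATG16L1 were lost (adjusted p up to 0.235), and with a replicate block ATG16L1 was.

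**Figure D2:**
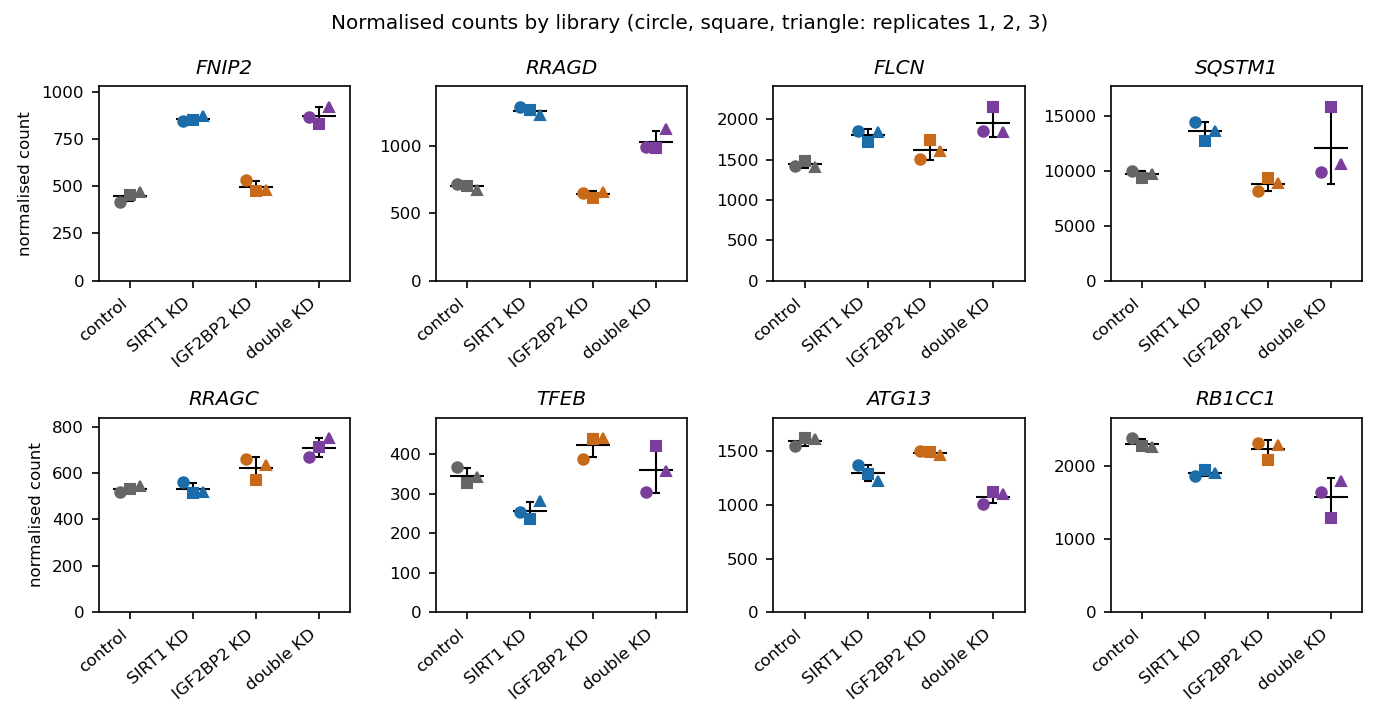
Normalised counts of 8 genes in every library; symbols are replicates 1 to 3, black bars are the mean and SD, and each axis starts at 0. FNIP2 and RRAGD are high in SIRT1 KD and double KD, ATG13 and RB1CC1 are low there, and SQSTM1 reads 15866 in double KD replicate 2 against 9879 and 10618 in its partners.

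The comparison of IGF2BP2 KD with control asks the same of the RNA-binding protein. The GABARAP family genes GABARAPL2 and GABARAPL1 fell 1.37-fold and 1.18-fold, WIPI1 fell 1.32-fold, and ATG14, FNIP1, ATG16L1 and OPTN rose 1.22-fold to 1.32-fold. At an adjusted p under 0.05, 4 of the 36 genes rose and 3 fell, 7 of 36, beside 16.3% of all tested genes (6.86% rose and 9.39% fell). The median log2 fold change of the 36 was 0.01. Without double KD replicate 2, at the same log2 values, 8 rose and 5 fell, beside 28.7% of all tested genes (13% rose and 15.7% fell). The added rises were TFEB, ATG9A (adjusted p = 0.00836), FLCN (0.0251) and RRAGC (0.0130), and the added falls TFE3 (0.0417) and TAX1BP1 (0.00312). All comparisons with control share the same 3 control libraries.

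GABARAPL2 (chr16:75566351-75577881, plus strand) and GABARAPL1 (chr12:10212458-10223130, plus strand) encode ATG8 proteins that act late, in autophagosome closure and fusion, and also bind many cargo receptors. GABARAPL2 went from 727, 802 and 721 normalised counts to 532, 526 and 584 (log2 fold change -0.45, SE 0.090, adjusted p = 0.00162). GABARAPL1 went from 565, 509 and 558 to 465, 450 and 471 (-0.23, SE 0.077, adjusted p = 0.0445). No IGF2BP2 KD library reached a control for either gene. MAP1LC3A (0.25), MAP1LC3B (0.05) and GABARAP (0.30) did not pass, with adjusted p-values from 0.306 to 0.686. WIPI1 (chr17:68420948-68457513, minus strand), which reads the PI3-kinase lipid signal, went from 687, 706 and 670 to 515, 537 and 506 (-0.40, SE 0.089, adjusted p = 0.00389). Its relative WIPI2 did not pass (-0.12, adjusted p = 0.262). Of WIPI1's exon bases 24.3% overlap ARSG on the other strand, which had a mean of 61.9 normalised counts.

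ATG14 went from 594, 579 and 637 normalised counts in the controls to 779, 810 and 793 (log2 fold change 0.40, SE 0.070, adjusted p = 0.000587). ATG16L1 (chr2:233210051-233295674, plus strand) went from 514, 516 and 531 to 663, 664 and 636 (0.33, SE 0.073, adjusted p = 0.00416). These were rises without overlap between groups. FNIP1 (chr5:131641714-131797063, minus strand) went from 2455, 2592 and 2586 to 3399, 2998 and 3310 (0.34, SE 0.098, adjusted p = 0.0222), while its paralog FNIP2 had a log2 fold change of 0.15 (adjusted p = 0.206). OPTN (chr10:13099449-13138308, plus strand), a receptor for damaged mitochondria and bacteria, went from 4376, 4008 and 4238 to 4938, 5091 and 5319 (0.28, SE 0.059, adjusted p = 0.00274). TFEB read 389, 439 and 441, above every control, and did not pass (0.29, adjusted p = 0.0870), but did without double KD replicate 2 (0.00823). None of the 5 ULK complex genes passed (-0.14 to 0.01). The calls of 5 genes held when any 1 library was left out. FNIP1 was lost without any 1 control or IGF2BP2 KD 1 or 3 (adjusted p up to 0.0960), and GABARAPL1 without control 1 or 3, SIRT1 KD 1 or 3, or any IGF2BP2 KD library (up to 0.163) or with no filter (0.235).

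**Figure D3:**
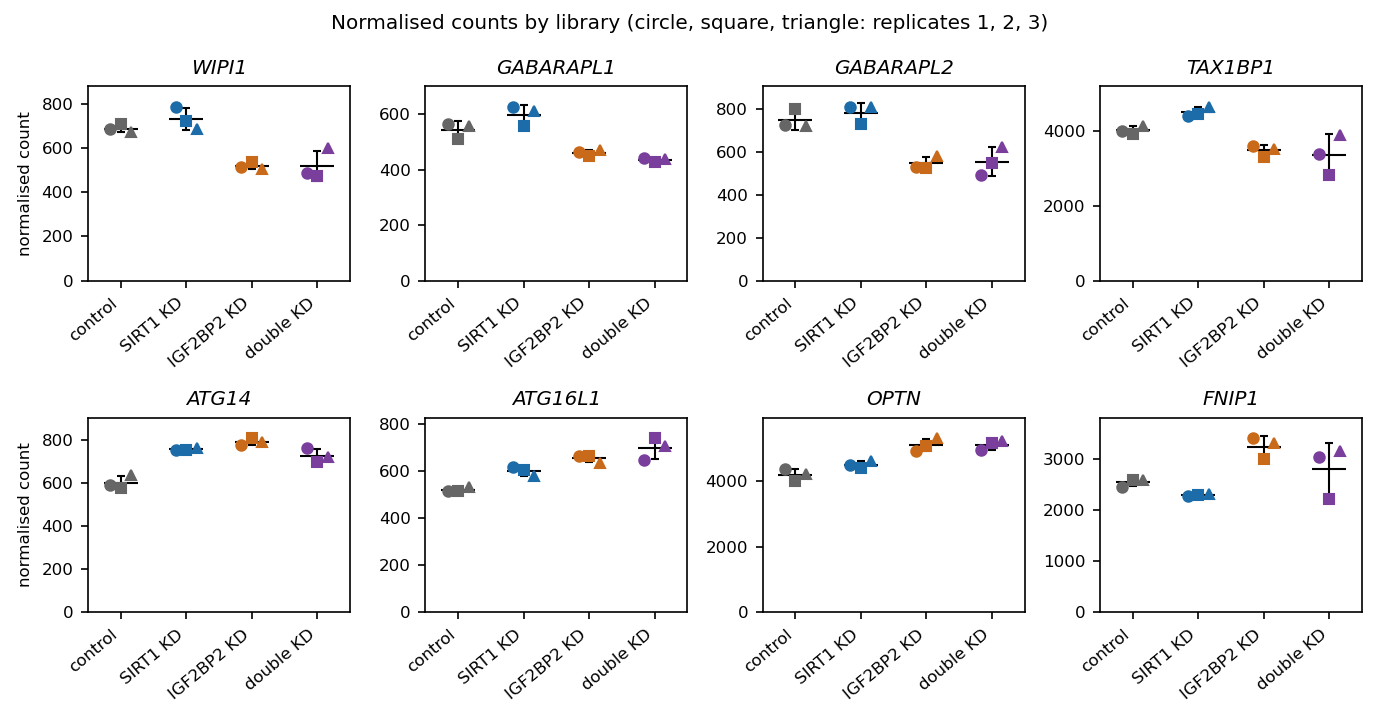
Normalised counts of 8 genes in every library; symbols are replicates 1 to 3, black bars are the mean and SD, and each axis starts at 0. WIPI1, GABARAPL1 and GABARAPL2 are low in IGF2BP2 KD and double KD; double KD replicate 2 is the lowest double KD library for TAX1BP1 (2805) and FNIP1 (2221).

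Double KD against control gave the most calls of the 3 comparisons with control. FNIP2 rose 1.95-fold, RRAGD 1.47-fold and FLCN 1.35-fold, and RRAGC, ATG16L1, ATG10, ATG7 and ULK2 rose 1.29-fold to 1.34-fold. The ULK scaffold genes ATG13 and RB1CC1 fell 1.48-fold each, and GABARAPL2, WIPI1 and GABARAPL1 fell 1.25-fold to 1.35-fold. At an adjusted p under 0.05, 10 of the 36 genes rose and 6 fell, 16 of 36, beside 34.2% of all tested genes (16.7% rose and 17.5% fell), and the median log2 fold change was 0.16 against 0.01 over all tested genes. Without double KD replicate 2, 14 rose and 5 fell, beside 40.2% of all tested genes (19.6% rose and 20.6% fell), with UVRAG (0.22, adjusted p = 0.0145), ATG9A (0.22, adjusted p = 0.00889), MAP1LC3B (0.18, adjusted p = 0.0279) and FNIP1 added and TAX1BP1 lost. Without double KD replicate 1, 16 rose, and 3264 of all tested genes did, in place of 2939.

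In the nutrient relay FNIP2 read 866, 832 and 920 normalised counts in double KD (log2 fold change 0.96, SE 0.077, adjusted p = 2.37e-08). RRAGD read 993, 984 and 1123 (0.56, adjusted p = 6.81e-06), FLCN 1853, 2155 and 1847 (0.43, adjusted p = 0.000184) and RRAGC 669, 711 and 750 (0.42, adjusted p = 0.000439). So 4 of 5 relay genes rose, and the fifth, FNIP1, was 0.12 (adjusted p = 0.371) with replicate 2 at 2221 and its partners at 3031 and 3159. Without replicate 2, FNIP1 was 0.28 (adjusted p = 0.000151). TFEB read 305, 421 and 358, overlapping the controls (0.05, adjusted p = 0.766).

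In the ULK complex the scaffolds fell and ULK2 rose. ATG13 read 1009, 1117 and 1103 normalised counts (log2 fold change -0.57, adjusted p = 2.61e-06) and RB1CC1 1640, 1287 and 1788 (-0.57, adjusted p = 9.55e-05; -0.43 without replicate 2, adjusted p = 1.66e-07). ULK2 (chr17:19770829-19867936, minus strand), a kinase closely related to ULK1, went from 684, 631 and 671 to 834, 769 and 963 (0.36, adjusted p = 0.00204), while ULK1 was 0.01 (adjusted p = 0.940). ATG101 read 217, 412 and 243, its high value being replicate 2, and did not pass (0.41, adjusted p = 0.0832; 0.13 without replicate 2).

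In the conjugation group ATG16L1 (648, 740 and 708 normalised counts, log2 fold change 0.42, adjusted p = 0.000190), ATG10 (142, 141 and 165 against 116, 117 and 101 in the controls, 0.42, adjusted p = 0.0156) and ATG7 (785, 973 and 774 against 623, 659 and 631, 0.40, adjusted p = 0.00150) rose. ATG7 is the E1-like enzyme that activates both ubiquitin-like conjugates, and ATG10 is the E2-like enzyme for ATG12. ATG7 and ATG10 share 18.1% and 6.86% of their exon bases with opposite-strand genes, VGLL4 and RPS23, whose means were 634 and 5693 normalised counts. ATG3, ATG4A, ATG4B, ATG5 and ATG12 ranged from -0.12 to 0.28 and did not pass. ATG14 read 766, 700 and 721 (0.27, adjusted p = 0.00512) and OPTN 4955, 5192 and 5231 (0.29, adjusted p = 0.001).

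GABARAPL2 read 494, 548 and 626 normalised counts (log2 fold change -0.44, adjusted p = 0.000893), WIPI1 488, 472 and 598 (-0.41, adjusted p = 0.00139) and GABARAPL1 442, 428 and 438 (-0.32, adjusted p = 0.00354). For all 3 the highest double KD library was below the lowest control. TAX1BP1 (chr7:27739331-27844564, plus strand), a receptor of the ubiquitin-binding kind, went from 3990, 3904 and 4124 to 3381, 2805 and 3892 and was called (-0.27, adjusted p = 0.0237), but not without double KD replicate 2 (-0.14, adjusted p = 0.0593), nor without control 1 or 3 (up to 0.0870). ATG10 was also lost without control 3 or double KD 3 (up to 0.0797) or with no filter (0.0648), TAX1BP1 with only the groups compared (0.0979), and the other 14 calls held when any 1 library was left out. SQSTM1 read 9879, 15866 and 10618 and did not pass (0.29, adjusted p = 0.101); without replicate 2 it was 0.08.

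**Figure D4:**
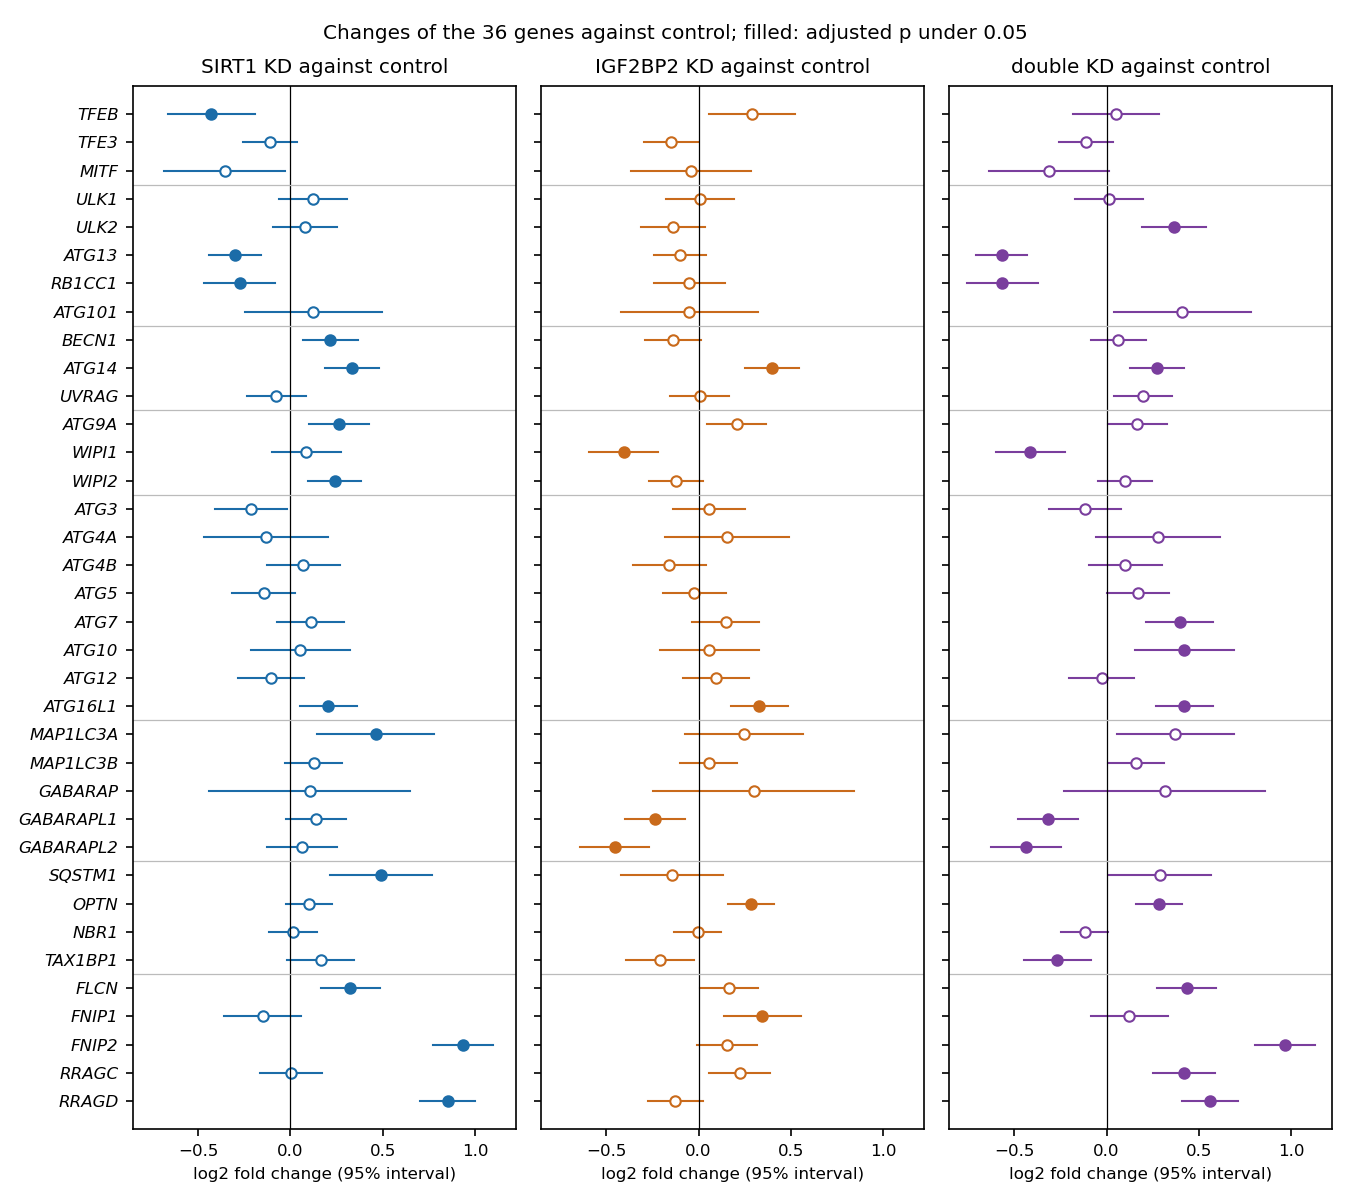
Log2 fold change of each gene against control with its 95% interval; filled circles have an adjusted p under 0.05, and grey lines separate the roles in the order of the first paragraph. FNIP2 stands furthest right in SIRT1 KD (0.93) and double KD (0.96), ATG13 and RB1CC1 furthest left in double KD (-0.57 each).

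Each knockdown was made in 2 backgrounds, so its effect can be read in a pair of comparisons that share no library. The knockdowns were not matched between backgrounds: SIRT1 was lower still in double KD than in SIRT1 KD (log2 fold change -0.38, adjusted p = 0.00157), and IGF2BP2 rose 1.22-fold in SIRT1 KD (0.29, adjusted p = 0.0274). In IGF2BP2 KD, SIRT1 read 763, 691 and 730 normalised counts, each below every control (87.3% of the control mean). That difference did not pass (-0.20, adjusted p = 0.102). For SIRT1 the second is double KD against IGF2BP2 KD, in which 10 of the 36 genes rose and 2 fell, beside 31.6% of all tested genes (16.4% rose and 15.2% fell). FNIP2 (log2 fold change 0.81, adjusted p = 3.71e-07), RRAGD (0.69, adjusted p = 1.03e-06), SQSTM1 (0.43, adjusted p = 0.0189), FLCN (0.27, adjusted p = 0.0101), WIPI2 (0.22, adjusted p = 0.0201) and BECN1 (0.20, adjusted p = 0.0378) rose in both. These 6 are 60.0% of each list. Over all tested genes 1508 rose in both, 66.4% of the first list and 52.3% of the second. Both genes that fell here, RB1CC1 (-0.51, adjusted p = 0.000295) and ATG13 (-0.47, adjusted p = 3.44e-05), also fell in SIRT1 KD, 2 of the 3 there. Over all tested genes 1674 fell in both, 60.7% and 62.8% of the lists.

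The other 4 rises of double KD over IGF2BP2 KD were ULK2 (0.50, adjusted p = 0.000130), from 624, 606 and 573 to 834, 769 and 963 normalised counts, ATG10 (0.36, adjusted p = 0.0377), ATG4B (0.26, adjusted p = 0.0438) and ATG7 (0.25, adjusted p = 0.0339). ATG4B, a protease that primes ATG8 proteins, was called although its libraries overlapped (631, 754 and 626 against 748, 929 and 736). Without double KD replicate 2 the value was 0.22 for SQSTM1 (adjusted p = 0.00445), 0.15 for ATG4B (0.119), 0.14 for ATG7 (0.117) and 0.15 for BECN1 (0.0689), so the last 3 calls were lost. UVRAG (0.21, adjusted p = 0.0191), ATG5 (0.20, adjusted p = 0.0376) and RRAGC (0.19, adjusted p = 0.0476) rose and TFEB fell without that library, giving 10 rises and 3 falls, beside 36.9% of all tested genes (19% rose and 17.8% fell). There were 5 rises without IGF2BP2 KD 1 and 5 falls without double KD 3. Of all tested genes 2427 rose in the first of these fits, in place of 2885, and 2665 fell in the second, as in the main fit. Calls of 5 genes (FNIP2, RRAGD, ULK2, ATG13, RB1CC1) held whichever library was left out. SQSTM1 was lost without IGF2BP2 KD 1 (adjusted p = 0.0784), FLCN likewise (0.0618), WIPI2 without IGF2BP2 KD 1 or 3 or double KD 3 (up to 0.0726), ATG7 also without IGF2BP2 KD 1 or 2 (up to 0.118), ATG10 without IGF2BP2 KD 1 or 2 or double KD 3 (up to 0.171), and BECN1 and ATG4B in 8 and 9 of the 12 cases (up to 0.134 and 0.169). With only the groups compared, SQSTM1 (0.172), FLCN (0.0710), WIPI2 (0.111), ATG7, ATG10, ATG4B and BECN1 were lost, and with no filter the same list except FLCN and WIPI2. ATG10 was lost by DESeq2 also. TFEB was -0.24 (adjusted p = 0.117), and -0.35 without replicate 2 (adjusted p = 0.00270).

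For IGF2BP2 the second comparison is double KD against SIRT1 KD, in which 9 of the 36 genes rose and 7 fell, beside 22.6% of all tested genes (11.9% rose and 10.7% fell). GABARAPL2 (log2 fold change -0.50, adjusted p = 0.000520), WIPI1 (-0.50, adjusted p = 0.000501) and GABARAPL1 (-0.45, adjusted p = 0.000308) fell again, which is 100% of the genes that fell in IGF2BP2 KD and 42.9% of those that fell here. Over all tested genes 927 fell in both, 56.1% and 49.1% of the lists. The values in SIRT1 KD were 811, 730 and 809 for GABARAPL2, 785, 723 and 683 for WIPI1 and 627, 558 and 611 for GABARAPL1, and no double KD library reached them. Of the rises, ATG16L1 (0.22, adjusted p = 0.0395) and OPTN (0.18, adjusted p = 0.0334) were shared, 50% of the first list and 22.2% of the second, where all tested genes gave 51.1% and 29.4%. Without double KD replicate 2 the call of ATG16L1 in this comparison was lost (0.175, adjusted p = 0.0682).

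In the same comparison TAX1BP1 fell from 4379, 4448 and 4633 to 3381, 2805 and 3892 normalised counts (-0.43, adjusted p = 0.00145; -0.31 without replicate 2). RRAGD (-0.29, adjusted p = 0.00650), RB1CC1 (-0.29, adjusted p = 0.0286) and ATG13 (-0.27, adjusted p = 0.00687) fell too, so RRAGD in double KD lay between control and SIRT1 KD, and both ULK scaffolds lay below SIRT1 KD. TFEB rose from 253, 237 and 282 to 305, 421 and 358 (0.48, SE 0.111, adjusted p = 0.00419; 0.36 without replicate 2). RRAGC (0.42, adjusted p = 0.000871), ATG10 (0.37, adjusted p = 0.0453), ATG5 (0.32, adjusted p = 0.00836), ULK2 (0.29, adjusted p = 0.0174), ATG7 (0.29, adjusted p = 0.0226) and UVRAG (0.27, adjusted p = 0.0135) rose. ATG5 joins with ATG12 to form the E3-like conjugate of the pathway.

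Of the 16 calls of double KD against SIRT1 KD, 9 held whichever library was left out (TFEB, RRAGC, ATG5, ATG13, WIPI1, GABARAPL1, GABARAPL2, TAX1BP1, RRAGD). RB1CC1 and ATG7 were lost without any 1 SIRT1 KD library or double KD 2 (adjusted p up to 0.0927 and 0.0938; without double KD 2 their values were -0.15 and 0.18), ULK2 without SIRT1 KD 2 or 3 or double KD 3 (up to 0.0870), UVRAG without SIRT1 KD 2 (0.0715), OPTN without control 3, any SIRT1 KD library or double KD 3 (up to 0.106), and ATG10 and ATG16L1 in 9 and 10 of the 12 cases (up to 0.149 and 0.147). With only the groups compared the calls of ATG13 (0.0628), RB1CC1 (0.122), ULK2, UVRAG, ATG7, ATG10, ATG16L1 and OPTN were lost, with no filter the last 6 of these, and by DESeq2 ATG10. SQSTM1 did not pass (-0.20, adjusted p = 0.303), and was -0.41 without replicate 2 (adjusted p = 1.11e-06). FNIP1 was 0.27 (adjusted p = 0.0541), and 0.43 without replicate 2 (adjusted p = 1.76e-07). Without that library 10 genes rose and 9 fell, beside 29.3% of all tested genes (15.3% rose and 14% fell). MITF (0.30, adjusted p = 0.0266) and ATG12 (0.20, adjusted p = 0.0186) were also among those rises, and BECN1 (-0.20, adjusted p = 0.0162) and WIPI2 (-0.20, adjusted p = 0.00988) among the falls. Rises numbered 3 to 5 without any 1 SIRT1 KD library, and 5 without double KD 3. Among all tested genes they numbered 1366 to 1552 and 1809 in these fits, in place of 2093.

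**Figure D5:**
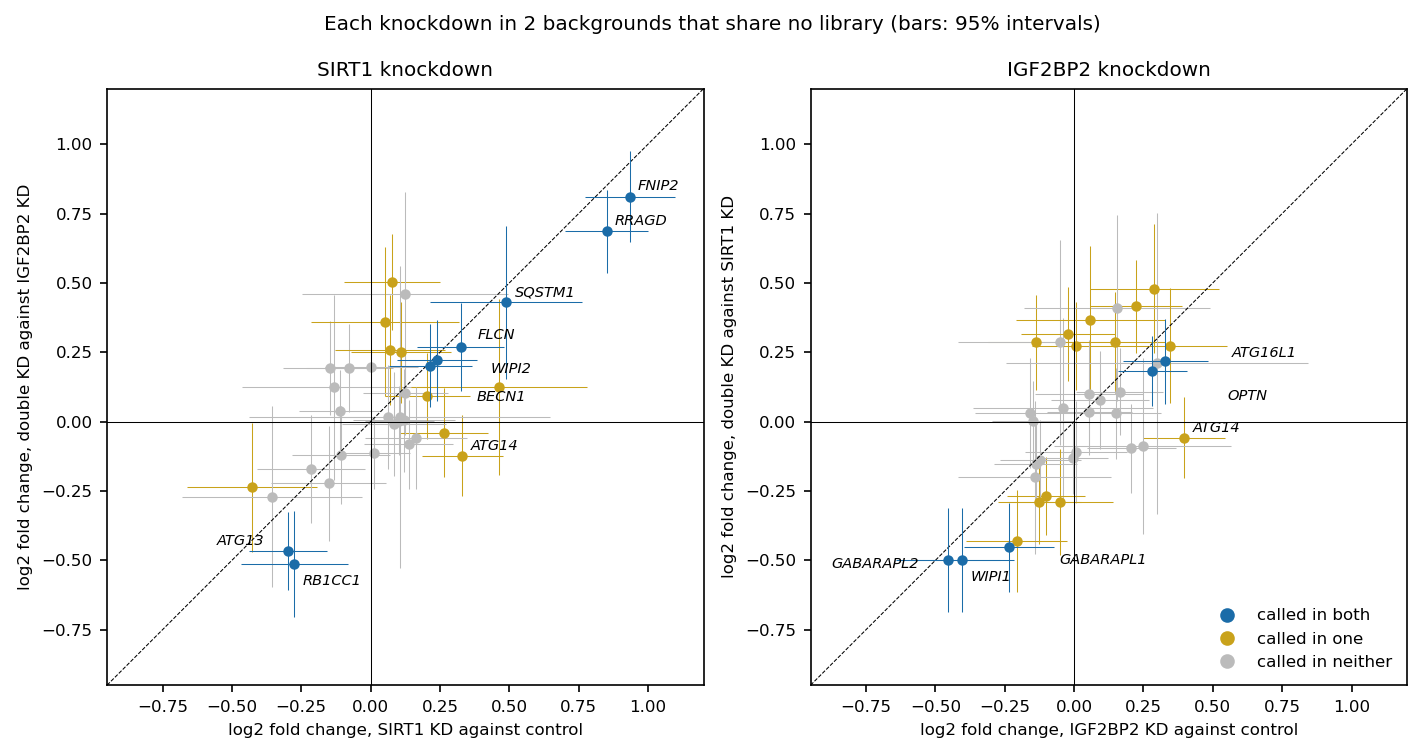
Left, log2 fold change of each gene for SIRT1 knockdown in cells without (x axis) and with (y axis) IGF2BP2 knockdown; right, the same for IGF2BP2 knockdown without and with SIRT1 knockdown; bars are 95% intervals and the dashed line marks equal change. FNIP2 and RRAGD lie near the line at upper right on the left panel (0.93 and 0.81, 0.85 and 0.69), and ATG14 lies off it in both panels.

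The interaction asks whether the change in double KD differs from the sum of the 2 single changes on the log2 scale. It was called for 1 of the 36 genes, ATG14, beside 2.86% of all tested genes (1.7% above and 1.16% below the sum). ATG14 had means of 603 normalised counts in control, 759 in SIRT1 KD, 794 in IGF2BP2 KD and 729 in double KD, so each single knockdown raised it and both together gave less than their sum (-0.45, SE 0.098, 95% interval -0.66 to -0.25, adjusted p = 0.0188). The call was lost without control 1 or 2, SIRT1 KD 1 or 3, or IGF2BP2 KD 3 (adjusted p 0.0555 to 0.0777), with values from -0.43 to -0.46, and with no filter (0.0808). The next gene, ULK2, was 0.42 (95% interval 0.18 to 0.67, adjusted p = 0.0565), and 0.50 without double KD replicate 2 (adjusted p = 0.000609). Without that library the interaction was called for 5 genes, beside 10.1% of all tested genes (6.06% above and 4.02% below the sum): ATG14, ULK2, ATG5 (0.34, adjusted p = 0.0236), SQSTM1 (-0.27, adjusted p = 0.0320) and MAP1LC3A (-0.50, adjusted p = 0.0435). ULK2 and ATG5 were called without double KD replicate 1 as well (adjusted p up to 0.0469). FNIP2 (-0.12, 95% interval -0.35 to 0.11) and GABARAPL2 (-0.05, 95% interval -0.31 to 0.22) did not pass, with intervals that allow a departure of up to these bounds.

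Over the 5 pairwise comparisons 26 of the 36 genes were called at least once, beside 54.9% of all tested genes, and 10 were not: TFE3, MITF, ULK1, ATG101, ATG3, ATG4A, ATG12, MAP1LC3B, GABARAP and NBR1. Of these 10, 5 passed in some comparison without double KD replicate 2 (MITF, ATG3, TFE3, ATG12 and MAP1LC3B), and ATG101, ATG4A and NBR1 did without double KD replicate 1 or 3. MAP1LC3B, the LC3 gene most used as an autophagosome marker, ranged in group mean from 2090 ± 88.2 (control, SD, n = 3) to 2337 ± 213 (double KD) normalised counts. NBR1, a receptor related to p62, ranged from 5456 ± 370 (double KD) to 5971 ± 194 (SIRT1 KD). TFE3 ranged from 3074 ± 257 (IGF2BP2 KD) to 3404 ± 141 (control). A gene that did not pass may still have changed by as much as its interval allows, such as -0.44 to 0.65 for GABARAP in SIRT1 KD. Of the genes with CACGTG in the start-site window, ATG14 rose in all 3 comparisons with control, FNIP1 in IGF2BP2 KD, RRAGC in double KD and ATG3 in none. ATG16L1, whose window lacks CACGTG, also rose in all 3. The windows of FNIP2 and FLCN, which rose in SIRT1 KD and double KD, lack it too. The part of CACGTG in these changes was not tested.

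Beside the 36 genes, 34 other autophagy genes, 43 other genes of mTORC1 and nutrient sensing, and 27 MiT/TFE target genes outside autophagy were read from the same fit. In SIRT1 KD 8 of the 34 autophagy genes rose and 4 fell, where 12.9% of all tested genes rose and 15.7% fell. The same shares of all tested genes were 6.86% and 9.39% in IGF2BP2 KD, and 16.7% and 17.5% in double KD. STX17, the SNARE that fuses autophagosomes with lysosomes, fell from 1113, 1125 and 1129 to 598, 612 and 609 normalised counts (log2 fold change -0.89, adjusted p = 4.14e-07), and TMEM41B, a lipid scramblase, by 0.58. FYCO1 (0.50), which links autophagosomes to motor transport, and EPG5 (0.38), a tether for fusion, rose. Of the 34, 5 rose and 2 fell in IGF2BP2 KD, where ATG4D fell by 0.63 and MAP1LC3C, a low LC3 gene (29.7, 25.2 and 25.1 in the controls), fell to 10.7, 9.04 and 8.63 (-1.40, adjusted p = 0.000935). In double KD 13 rose and 8 fell, led by EPG5 (0.68), RUBCN (0.76), a negative regulator of the PI3-kinase complex, and FYCO1 (0.54).

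Of the 43 nutrient-sensing genes 7 rose and 9 fell in SIRT1 KD, where 12.9% of all tested genes rose and 15.7% fell. The same shares of all tested genes were 6.86% and 9.39% in IGF2BP2 KD, and 16.7% and 17.5% in double KD. LAMTOR1, the lysosomal anchor of the Rag GTPases, fell from 1450, 1431 and 1548 to 866, 747 and 761 normalised counts (-0.90, adjusted p = 1.41e-07), and SLC38A9, an arginine sensor of the same complex, rose (0.75, adjusted p = 7.16e-05). PRKAA1, a catalytic subunit gene of AMPK, fell by 0.64. In IGF2BP2 KD 5 rose and 3 fell, with SESN1, a leucine sensor, at 0.64 (adjusted p = 0.00435). In double KD 14 rose and 6 fell: SESN1 went from 102, 110 and 76.2 in the controls to 220, 236 and 233 (1.26, adjusted p = 1.77e-06), MTOR rose (0.57), and DDIT4, an mTORC1 inhibitor, fell from 8788, 8766 and 8823 to 4006, 5586 and 4359 (-0.93, adjusted p = 5.44e-07). DDIT4 was also below the sum of the single changes (interaction -0.58, adjusted p = 0.0263), and RHEB (0.53), PRKAB2 (0.56) and MIOS (0.40) were above it.

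Of the 27 MiT/TFE targets outside autophagy, mostly lysosomal genes, 4 rose and 4 fell in SIRT1 KD. There 12.9% of all tested genes rose and 15.7% fell. The same shares of all tested genes were 6.86% and 9.39% in IGF2BP2 KD, and 16.7% and 17.5% in double KD. LAMP1, a main lysosomal membrane protein, fell from 4493, 4353 and 4418 to 1842, 1653 and 1948 normalised counts (-1.29, adjusted p = 1.85e-10), GLA fell by 0.39, and CLCN7, a lysosomal chloride-proton exchanger, rose (0.32). In IGF2BP2 KD 7 rose and 1 fell: NEU1, a sialidase, fell by 0.85 (adjusted p = 6.84e-07), and its binding partner CTSA (0.42) and HEXA (0.38) rose. In double KD 8 rose and 5 fell, with LAMP1 at 2128, 2197 and 2128 (-1.04, adjusted p = 8.18e-10), NEU1 at -0.95 and ATP6V0D1, a subunit of the lysosomal proton pump, at 0.51. Their medians in SIRT1 KD, IGF2BP2 KD and double KD were 0.03, 0.11 and 0.04.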

How the data were processed

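Total RNA was sequenced in 12 libraries, 3 in each of 4 groups. Per the submitters' processing notes, CASAVA, STAR and DESeq2 were used with build GRCh38.p13; no versions, annotation or strand setting are given in the sources used here. The authors deposited a signal table, in which each library's counts were divided by its size factor. In all 12 columns every value was a whole multiple of 1 read's worth within 0.001 reads, so reads could be recovered. Its columns carry short codes: the letters gave 3 of the groups, and the code left over was read as SIRT1 KD. The authors also deposited log2 ratios for 15209 genes under full names; each coded column matched the column of its own name (SD of the difference at most 0.00641) and no other (at least 0.389), a match known from earlier work and so not blind. A deposited count table with 12 unnamed columns was not used.

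Symbols were matched by ID for 60463 of 60649 IDs, and positions come from GENCODE 29 (GRCh38). Groups were compared with limma 3.58.1 (R 4.3.3) fitted to log2(normalised count + 1), using a mean per group, all 12 libraries, a variance trend and robust moderation, and Benjamini-Hochberg adjustment over the 17576 genes kept by edgeR's filterByExpr (minimum count 10). Fold changes are on this scale, which understates changes of low genes. Genes were called at an adjusted p under 0.05 in 6 comparisons, and intervals are 95%. The test fits the deposited unit and was tried on simulated counts, with 100 genes changed at each of 2 sizes. It recovered 36% to 40% of 1.3-fold changes and 71% to 74% of 2-fold changes. Among genes with a mean of at least 50 reads these shares were 46.8% to 51.9% and 97.1%. False calls were 5.26% to 7.56% of all calls. Changes of about 1.3-fold can therefore be missed. Alternatives were edgeR 4.0.16 and DESeq2 1.42.0 on recovered reads, TMM scaling, pseudocounts of 0.5 and 5, no filter, a mean of at least 50, only the groups compared, a replicate block, and leaving out each library. All 36 genes are accounted for: those called are named with values by comparison, and of each further list at most 4 genes per comparison are named, by adjusted p. Some genes of these lists are not reported here by name. The 36 genes and all lists were chosen with earlier results of these data known. Reads were not counted by molecule, so counting error is not given for single libraries.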

Additional observations from a re-analysis of the deposited data

Results flagged for a closer look

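ATG14 was singled out because the effect of 1 knockdown on it differed with the state of the other, by the test of the difference itself. It read 594, 579 and 637 normalised counts in control, 757, 754 and 765 in SIRT1 KD, 779, 810 and 793 in IGF2BP2 KD and 766, 700 and 721 in double KD. The change on IGF2BP2 knockdown was 0.40 in cells without the SIRT1 hairpin and -0.06 in SIRT1 KD cells. The difference was -0.45 (SE 0.098, limma adjusted p = 0.0188 over 17576 genes). SIRT1 itself was at 87.3% of the control mean in IGF2BP2 KD. Over the leave-one-out fits and the other alternatives in which the call was lost, the adjusted p ranged from 0.0555 to 0.0808.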

How the results depend on the processing

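No log2 fold change of the 36 genes reversed among the calls under any alternative run. Of 65 calls, 40 held in all 12 leave-one-out fits and 38 in every alternative. FNIP2 and RRAGD in SIRT1 KD and double KD, and the falls of WIPI1 and GABARAPL2 in IGF2BP2 KD, were among these. Fitting only the groups compared gave 8 falls in SIRT1 KD, 8 rises and 6 falls in IGF2BP2 KD, 3 rises of double KD over SIRT1 KD and 3 over IGF2BP2 KD. Over all tested genes the same counts were 3996 falls, 2345 rises and 2771 falls, 1085 rises and 1838 rises. With no filter (44287 genes) double KD had 3 rises over SIRT1 KD and 5 over IGF2BP2 KD, and the interaction had 0 falls. Over all genes of that fit the counts were 1582, 2388 and 184, in place of 2093, 2885 and 204 in the main fit. DESeq2, and a mean of at least 50, each gave 1 interaction rise, ULK2. Over all genes of those fits 526 and 363 interaction rises were called, in place of 299. Leaving out 1 library gave, as lowest and highest, 5 to 11 rises and 2 to 6 falls in SIRT1 KD, 3 to 8 and 2 to 5 in IGF2BP2 KD, 9 to 16 and 5 to 8 in double KD, 3 to 11 and 6 to 9 in double KD against SIRT1 KD, 5 to 13 and 2 to 5 against IGF2BP2 KD, and 0 to 2 and 0 to 3 for the interaction. Among all tested genes the same leave-one-out fits gave 1700 to 3330 rises and 2107 to 3671 falls in SIRT1 KD. They gave 715 to 2286 and 1089 to 2751 in IGF2BP2 KD, and 2268 to 3450 and 2442 to 3618 in double KD. Double KD had 1366 to 2693 and 1336 to 2454 against SIRT1 KD, and 2318 to 3346 and 2089 to 3133 against IGF2BP2 KD. For the interaction there were 62 to 1065 and 51 to 706. The cause of these differences was not tested.

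Over all tested genes, counts that moved by over 1.5 times were, with only the groups compared, 7794 in place of 5030 in SIRT1 KD, 5116 in place of 2857 in IGF2BP2 KD, 2214 in place of 3980 (double KD against SIRT1 KD) and 3641 in place of 5550 (against IGF2BP2 KD). The IGF2BP2 KD count was 1892 and 1862 without control 2 and 3, and 5037 without double KD 2. The interaction count was 919 by DESeq2 and 113 to 1771 over the leave-one-out fits, in place of 503.

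Replicate numbers did not pair the libraries: same-numbered libraries of different groups correlated at -0.37 to 0.30 (median 0.06, 18 pairs) and others at -0.41 to 0.36. With a replicate block the rises and falls were 9 and 4 in SIRT1 KD, 5 and 3 in IGF2BP2 KD, 11 and 6 in double KD, 11 and 7 against SIRT1 KD, 11 and 2 against IGF2BP2 KD, and 0 and 1 for the interaction. In the same order 5098, 2930, 6083, 4072, 5655 and 457 of all tested genes were called.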
